A study of Mus musculus with 12 samples.

Results

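Transcript levels of 8 transcription factors of the myeloid lineage, Spi1, Cebpa, Cebpb, Cebpd, Cebpe, Runx1, Klf4 and Myb, were followed in preosteoclasts with and without the histone demethylase LSD1. They were chosen by symbol from the 57010 genes of the count data, with earlier results of these data known. All 8 were among the 15425 genes with enough counts to be tested. Marrow was taken from female mice, and each group is described by genotype, bone and ligature. LSD1cKO mice carried a floxed LSD1 gene deleted by Cre under the lysozyme M (Lyz2) promoter, which is active in myeloid cells, and LSD1WT mice kept the gene. The 3 cultures were mandible marrow of mice that had worn silk ligatures on upper molars for 7 days, femur marrow of ligated mice, and femur marrow of unligated mice. Each held 2 libraries per genotype, so that 12 libraries from 9 mice (5 LSD1WT, 4 LSD1cKO) formed 6 conditions. All cells were grown for 2 days with M-CSF and RANKL, the growth factor of the macrophage lineage and the inducer of osteoclasts, and polyA RNA was sequenced. The labels give an age of 2 months, and the study's sequencing methods give an older one.

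Myeloid cells are specified by a small set of DNA-binding proteins that act in sequence. PU.1, encoded by Spi1, and RUNX1 open the programme in progenitors, C/EBPα directs them to the granulocyte and monocyte branches, C/EBPε drives the late granule genes of neutrophils, and KLF4 favours monocytes. MYB keeps progenitors immature and declines as they mature, while C/EBPβ and C/EBPδ rise in activated macrophages and in emergency granulocyte formation. Osteoclasts arise from the monocyte branch and need PU.1. LSD1 removes methyl groups from lysine 4 of histone H3 and is brought to DNA by the repressors GFI1 and GFI1B.

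Total counts ran from 21375805 to 32526751 per library, with a median of 26364586. Kdm1a, which encodes LSD1, was at 61.2 to 71.3 CPM (counts scaled by the TMM method to a common library size) in LSD1WT and at 15.6 to 24.3 CPM in LSD1cKO. Some features of the libraries touch the results. Femur LSD1WT replicate 2, ligated and unligated (different mice), nearly lacked osteoclast transcripts. The summed level of 10 osteoclast genes (Acp5, Ctsk, Calcr, Dcstamp, Ocstamp, Atp6v0d2, Mmp9, Itgb3, Oscar and Car2) was 66.97 and 144.9 CPM there and 11329 to 40298.1 CPM in the other 10 libraries. The label of preosteoclast therefore went against the markers in these libraries. Genotype and site results are given with and without them. The ligature comparison and the tests for a difference of the genotype effect are given only with them. The mandible LSD1WT pair was nearly identical, with a biological coefficient of variation (the spread beyond counting noise) of 0.0245 against 0.0940 to 0.590 in the other pairs. One library of that pair, replicate 3, has a title that says mandible and a library name that says femur, and it was kept as mandible. Nothing shows that libraries of a pair came from separate cultures beyond the mouse named in each label.

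The promoters of Klf4, Cebpb and Cebpa are shown here because Klf4 carried the clearest genotype difference and Cebpa and Cebpb differed together between libraries. Each holds 250 bases before the start and 50 after it, 5′ to 3′ on the gene's strand, from RefSeq on GRCm38.p6. Promoter sequences were found for 5 of the 8 genes. Capitals mark matches to the KLF-type letters CCNCNCCC, searched on both strands with overlaps allowed.
Klf4, chr4:55532426-55532725, minus strand: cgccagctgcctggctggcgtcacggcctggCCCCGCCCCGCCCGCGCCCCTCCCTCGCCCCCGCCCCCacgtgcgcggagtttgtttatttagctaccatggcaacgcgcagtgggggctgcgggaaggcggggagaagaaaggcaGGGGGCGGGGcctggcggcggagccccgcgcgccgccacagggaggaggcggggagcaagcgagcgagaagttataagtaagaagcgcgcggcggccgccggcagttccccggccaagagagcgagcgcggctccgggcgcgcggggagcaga
Cebpb, chr2:167688665-167688964, plus strand: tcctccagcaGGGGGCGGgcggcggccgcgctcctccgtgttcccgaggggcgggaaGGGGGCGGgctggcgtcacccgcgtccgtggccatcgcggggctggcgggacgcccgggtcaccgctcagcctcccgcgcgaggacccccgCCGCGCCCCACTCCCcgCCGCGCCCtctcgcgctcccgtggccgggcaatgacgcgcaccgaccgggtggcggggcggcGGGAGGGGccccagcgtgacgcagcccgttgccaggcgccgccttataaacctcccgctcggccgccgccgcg
Cebpa, chr7:35119043-35119342, plus strand: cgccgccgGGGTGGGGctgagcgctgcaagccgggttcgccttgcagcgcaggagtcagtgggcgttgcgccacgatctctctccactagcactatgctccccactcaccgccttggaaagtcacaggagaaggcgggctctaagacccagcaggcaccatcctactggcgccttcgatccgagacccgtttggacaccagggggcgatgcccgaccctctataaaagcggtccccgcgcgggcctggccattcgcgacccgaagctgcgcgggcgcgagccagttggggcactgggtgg
The Klf4 promoter held 9 matches to CCNCNCCC, most of them in a run near its 5′ end, in a sequence with 74.3% G and C. As many or more were found in 1.66% of the 32851 promoters of the same length. The Cebpb promoter held 6 matches, a number reached by 5.45% of promoters, at 80.7% G and C. The Cebpa promoter held 1, as did or exceeded 49.5% of promoters, at 67.3% G and C. None of the 3 windows held the C/EBP-type letters TTGCNNAA (in 10.8% of promoters), the PU.1-type letters GAGGAA (28.3%) or the GFI-type letters AATCAC (10.4%), on either strand. Each Runx1 promoter, not shown, held 1 match to the GFI-type letters, and 1 of them also held 1 match to the PU.1-type letters. Such matches are letters in a window and say nothing of binding in these cells.

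The question of the main comparison was what the loss of LSD1 changed in these factors. Klf4 and Cebpe were higher in LSD1cKO than in LSD1WT preosteoclasts, by 3.05-fold and 3.89-fold. Over the 3 cultures together, 2 of the 8 factors passed the test, both higher in LSD1cKO, where 3.53% of all tested genes passed and 3% passed as higher. The other 6 factors did not pass. This test took the 12 libraries as independent, although some mice gave a library from each bone. In bulk RNA, fewer cells of a type and less RNA per cell cannot be told apart, and this holds for each difference below.

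Klf4 (ENSMUSG00000003032), the zinc finger factor of monocyte maturation, stood at 10.5 and 10.8 CPM in the mandible of LSD1WT against 33.6 and 41.3 CPM in that of LSD1cKO. Ligated femurs gave 15.1 and 9.60 CPM for LSD1WT against 40.3 and 40.0 CPM for LSD1cKO. Unligated femurs gave 11.1 and 16.1 CPM against 38.4 and 29.3 CPM. Every LSD1cKO library was above every LSD1WT library, a separation toward LSD1cKO seen in 1.98% of tested genes, and the 2 femur LSD1WT libraries that nearly lacked osteoclast transcripts were the lowest and the highest of LSD1WT. The LSD1WT mean was 12.2 ± 2.69 CPM (SD, n = 6 libraries from 5 mice). The LSD1cKO mean was 37.2 ± 4.72 CPM (SD, n = 6 libraries from 4 mice). The difference was 3.05-fold (95% interval 2.38 to 3.92), a log2 fold change of 1.61 with a standard error of 0.16 and an adjusted p of 0.000919 (edgeR's quasi-likelihood test, Benjamini-Hochberg adjusted).

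Cebpe (ENSMUSG00000052435), the C/EBP factor of late granulocyte maturation, was low in all libraries but showed the same separation. Mandible cultures held 1.63 and 1.25 CPM for LSD1WT against 3.54 and 3.62 CPM for LSD1cKO. The ligated femur held 0.841 and 1.39 CPM against 5.79 and 7.93 CPM. The unligated femur held 1.83 and 0.580 CPM against 4.81 and 4.54 CPM. The lowest LSD1cKO library was thus above the highest LSD1WT library, and the ligated femur held the 2 highest values. The counts behind these levels ran from 14 to 181. The LSD1WT mean was 1.25 ± 0.47 CPM (SD, n = 6 libraries from 5 mice). The LSD1cKO mean was 5.04 ± 1.64 CPM (SD, n = 6 libraries from 4 mice). Cebpe had a log2 fold change of 1.96 (standard error 0.32), or 3.89-fold with a 95% interval of 2.37 to 6.38, at an adjusted p of 0.00896 (edgeR's quasi-likelihood test, Benjamini-Hochberg adjusted).

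**Figure D1:**
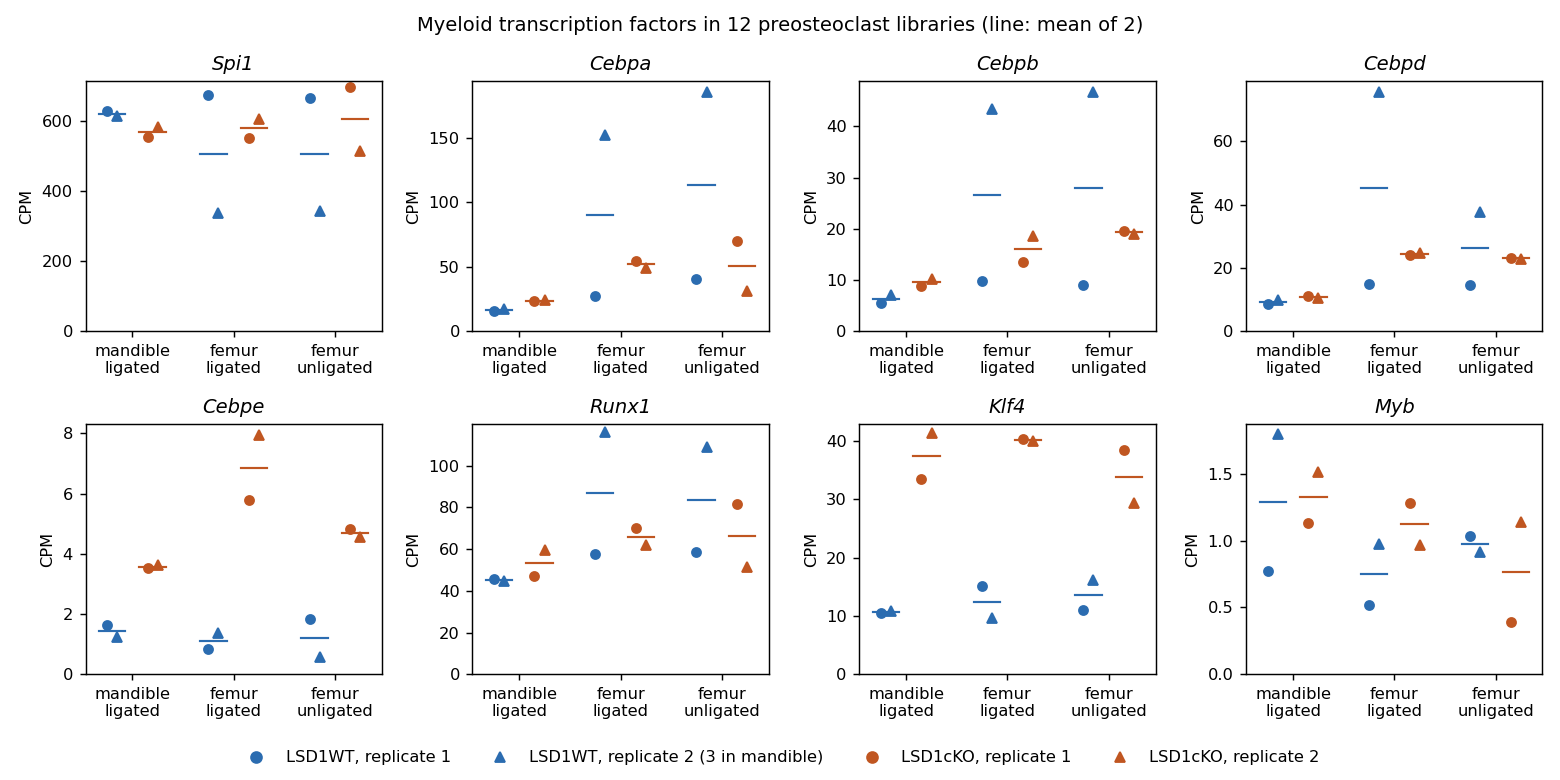
Level in CPM (linear axes from 0) of each of the 8 factors by culture, 1 panel per gene, with LSD1WT in blue and LSD1cKO in orange, a circle for replicate 1, a triangle for the other replicate and a line at the mean of 2. Klf4 and Cebpe are higher in each LSD1cKO library than in any LSD1WT library, and the femur LSD1WT triangles lie apart for Spi1, Cebpa, Cebpb, Cebpd and Runx1.

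Within single cultures, with 2 libraries against 2 and the spread estimated from all 12, no factor passed. Among mandible libraries 0 of 8 passed at an adjusted p under 0.05 (background 0%), 2 had an unadjusted p under 0.05 (background 4.82%) and DESeq2 called 1 (background 0.947%). Among ligated femurs 0 passed (background 0.00648%), 2 had an unadjusted p under 0.05 (6.88%) and DESeq2 called 2 (1.41%). Among unligated femurs 0 passed (background 0%), 2 had an unadjusted p under 0.05 (4.95%) and DESeq2 called 2 (0.791%). Klf4 and Cebpe were the 2 factors in each culture, and for both genes the LSD1cKO libraries lay above the LSD1WT libraries in each. That the genotypes did not overlap in either direction held for 68.9% of tested genes in mandible cultures, 34.2% in ligated and 18.4% in unligated femurs. For Klf4 the log2 fold change was 1.81 for mandible (standard error 0.29), 1.70 for ligated femur (0.29) and 1.32 for unligated femur (0.29). The adjusted p values of Klf4 were 0.165, 0.139 and 0.510 in that order (edgeR's quasi-likelihood test, Benjamini-Hochberg adjusted). That of Cebpe was 1.31 (standard error 0.52), 2.63 (0.55) and 1.95 (0.53). For Cebpe the adjusted p values were 0.941, 0.236 and 0.602 (edgeR's quasi-likelihood test, Benjamini-Hochberg adjusted). The genotype effect was also tested for a difference between the bones of ligated mice, and 0 of 8 factors passed (background 0%), 0 had an unadjusted p under 0.05 (0.966%) and DESeq2 called 0 (0.00648%). For a difference between ligated and unligated femurs 0 passed (background 0%), 0 had an unadjusted p under 0.05 (0.344%) and DESeq2 called 0 (0%).

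The other 6 factors overlapped between the genotypes. Spi1 (ENSMUSG00000002111), which encodes PU.1, was by far the most abundant. LSD1WT mandibles gave 628 and 614 CPM and LSD1cKO mandibles 555 and 584 CPM. Ligated femurs gave 674 and 338 CPM for LSD1WT against 553 and 607 CPM for LSD1cKO, and unligated femurs 667 and 345 CPM against 696 and 514 CPM. Outside femur LSD1WT replicate 2, the lowest library was an LSD1cKO femur and the highest was its partner of the same condition. Spi1 had a log2 fold change of 0.11 (95% interval -0.35 to 0.57).

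Runx1 (ENSMUSG00000022952), which marks the onset of the haematopoietic programme, had 45.8 and 44.8 CPM in LSD1WT mandibles and 47.1 and 59.5 CPM in LSD1cKO mandibles. Levels in ligated femurs were 57.7 and 116 CPM for LSD1WT against 69.9 and 62.0 CPM for LSD1cKO, and in unligated femurs 58.5 and 109 CPM against 81.4 and 51.5 CPM. The 2 values above 100 CPM were those of femur LSD1WT replicate 2, and without them the genotypes still overlapped. Runx1 had a log2 fold change of -0.17 (95% interval -0.66 to 0.33).

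Cebpa (ENSMUSG00000034957), the C/EBP factor of the granulocyte and monocyte branch point, had the widest range of the abundant factors. Its level was 15.5 and 17.6 CPM in LSD1WT mandibles and 23.1 and 24.0 CPM in LSD1cKO mandibles. Ligated femurs of LSD1WT had 27.6 and 152 CPM against 54.7 and 49.0 CPM for LSD1cKO. For unligated femurs the values were 40.5 and 185 CPM against 70.0 and 31.4 CPM. LSD1cKO lay between the LSD1WT replicates in the ligated femur, while LSD1cKO was above LSD1WT in the mandible. The log2 fold change over the cultures was -0.49 (95% interval -1.59 to 0.61).

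Cebpb (ENSMUSG00000056501), the C/EBP factor of activated macrophages, had 5.59 and 7.12 CPM in LSD1WT mandibles and 8.79 and 10.3 CPM in LSD1cKO mandibles. It had 9.83 and 43.5 CPM in ligated femurs of LSD1WT against 13.6 and 18.5 CPM for LSD1cKO, and 9.05 and 46.8 CPM against 19.6 and 19.0 CPM in unligated femurs. In each culture both LSD1cKO libraries were above LSD1WT replicate 1, and in the femur LSD1WT replicate 2 was above them. Cebpb had a log2 fold change of -0.24 (95% interval -1.23 to 0.75).

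Cebpd (ENSMUSG00000071637), which is induced with Cebpb by inflammatory signals, had 8.65 and 9.72 CPM in LSD1WT mandibles and 11.3 and 10.5 CPM in LSD1cKO mandibles. Its levels in ligated femurs were 14.9 and 75.7 CPM for LSD1WT against 24.0 and 24.9 CPM for LSD1cKO, and in unligated femurs 14.7 and 37.8 CPM against 23.3 and 22.9 CPM. Its order was that of Cebpb, with LSD1cKO above LSD1WT replicate 1 and below LSD1WT replicate 2 in the femur. Cebpd had a log2 fold change of -0.28 (95% interval -1.10 to 0.55).

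Myb (ENSMUSG00000019982), the progenitor factor, was close to the limit of detection. LSD1WT mandibles had 0.775 and 1.80 CPM and LSD1cKO mandibles 1.13 and 1.51 CPM. Femurs of ligated mice had 0.517 and 0.975 CPM for LSD1WT against 1.28 and 0.964 CPM for LSD1cKO, and those of unligated mice 1.03 and 0.911 CPM against 0.392 and 1.14 CPM. These are 11 to 49 counts, where 3 counts, the most that a count of 0 allows, are 0.0927 to 0.154 CPM (counting error only). Myb had a log2 fold change of 0.10 (95% interval -0.65 to 0.85), so a difference of the size seen for Klf4 lay outside the interval. The adjusted p of the 6 factors that did not pass was 0.701 to 0.933 (edgeR's quasi-likelihood test, Benjamini-Hochberg adjusted).

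For 5 of these factors the genotype value rested on femur LSD1WT replicate 2. In those libraries Spi1 was at 338 and 345 CPM, below all other libraries (514 to 696 CPM). Cebpa, Cebpb, Cebpd and Runx1 were each above all others, and 37% of tested genes did not overlap between these libraries and the other 10 (19.1% higher, 17.9% lower). Cebpa in replicate 2 was 5.50 times its level in replicate 1 for ligated femurs and 4.58 times for unligated ones. The ratios were 4.42 and 5.17 for Cebpb, 5.07 and 2.57 for Cebpd, and 2.02 and 1.86 for Runx1, while Spi1 was at 0.502 and 0.517 of replicate 1. Cebpa, Cebpb, Cebpd and Runx1 were therefore high in the libraries where osteoclast genes were low, and Spi1 was low there, while Cebpe, at 0.580 and 1.39 CPM, overlapped the other 10 libraries. The summed level of 20 monocyte and macrophage genes was also highest in these libraries, at 51160.8 and 25980.7 CPM against 4568 to 14137 CPM in the other 10. The part of these markers in the levels of the factors was not tested.

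**Figure D2:**
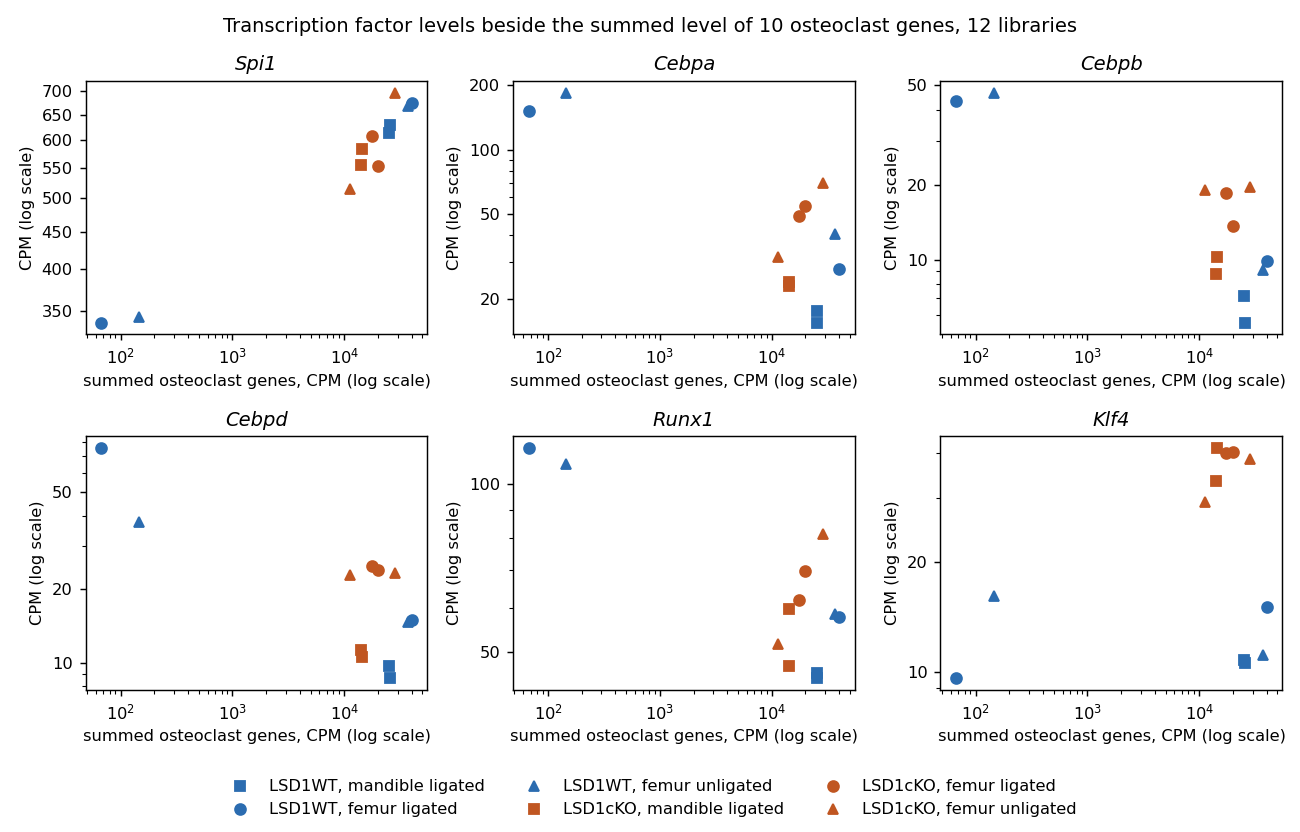
Level of 6 factors (vertical, CPM, log scale) against the summed level of 10 osteoclast genes (horizontal, CPM, log scale) in 12 libraries, with LSD1WT in blue, LSD1cKO in orange, squares for mandible, circles for ligated femur and triangles for unligated femur. The 2 libraries with sums of 66.97 and 144.9 CPM have the lowest Spi1 and the highest Cebpa, Cebpb, Cebpd and Runx1, while their Klf4, at 9.60 and 16.1 CPM, is the lowest and the highest of LSD1WT and below every LSD1cKO library.

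Without both of these libraries, the model called 4 of the 8 factors, all higher in LSD1cKO, against 24.2% of all tested genes called and 14.4% called as higher. Klf4 had a log2 fold change of 1.68 (adjusted p 1.37e-05) and Cebpe one of 1.79 (adjusted p 0.00195, edgeR's quasi-likelihood test, Benjamini-Hochberg adjusted). Cebpb changed its direction to 0.81 (adjusted p 0.00272) and Cebpd to 0.54 (adjusted p 0.00762, edgeR's quasi-likelihood test, Benjamini-Hochberg adjusted). Cebpa and Runx1 also changed direction, to 0.60 (adjusted p 0.0555) and 0.25 (adjusted p 0.199), and Spi1 to -0.11 (adjusted p 0.486, edgeR's quasi-likelihood test, Benjamini-Hochberg adjusted). The direction for Cebpa, Cebpb, Cebpd, Runx1 and Spi1 is therefore that of the libraries kept. The calls of Klf4 and Cebpe held in both fits.

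**Figure D3:**
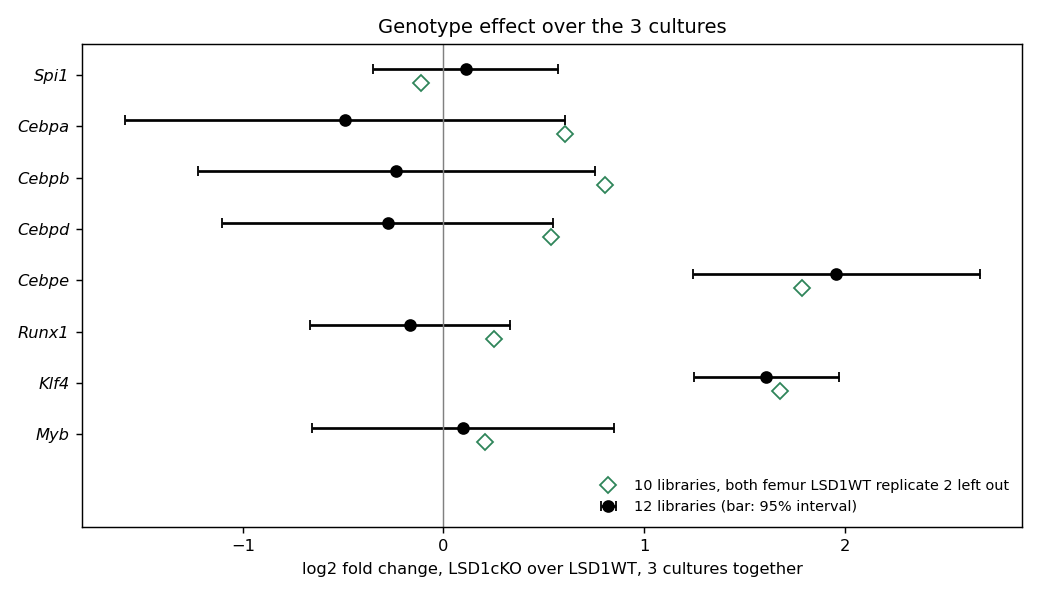
Log2 fold change of LSD1cKO over LSD1WT over the 3 cultures for the 8 factors, in all 12 libraries (black circles with 95% intervals) and without both femur LSD1WT replicate 2 libraries (open green diamonds). Klf4 at 1.61 and Cebpe at 1.96 have intervals above 0, and for Cebpa, Cebpb, Cebpd and Runx1 the diamond lies above 0 and the circle below it.

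The second question was whether the factors differed between marrow of the mandible and of the femur in ligated mice. Cebpa and Cebpd were lower in all 4 mandible libraries than in all 8 femur libraries, ligated or not, which held for 7.18% of tested genes. Cebpa ran from 15.5 to 24.0 CPM in the mandible and from 27.6 to 185 CPM in the femur. Cebpd was at 8.65 to 11.3 CPM and 14.7 to 75.7 CPM in the same order. Cebpb overlapped only slightly, at 5.59 to 10.3 CPM and 9.05 to 46.8 CPM. In LSD1WT, mandible against ligated femur, 0 of the 8 factors passed (background 0%), 4 had an unadjusted p under 0.05 (background 19.8%) and DESeq2 called 2 (7.71%). The 4 were Cebpa with a log2 fold change of -2.44 (standard error 0.87), Cebpd with -2.30 (0.69), Cebpb with -2.07 (0.81) and Runx1 with -0.94 (0.40). Their adjusted p values were 0.182 to 0.248 (edgeR's quasi-likelihood test, Benjamini-Hochberg adjusted). Leaving out both femur LSD1WT replicate 2 libraries, these log2 fold changes were -0.70 for Cebpa, -0.67 for Cebpd, -0.60 for Cebpb and -0.31 for Runx1, and 0 factors passed (background 0.9%). In LSD1cKO 0 passed (background 0%), 0 had an unadjusted p under 0.05 (background 15%) and DESeq2 called 0 (5.25%). There Cebpd had a log2 fold change of -1.17 (standard error 0.66), Cebpa -1.14 (0.84), Cebpe -0.94 (0.51) and Cebpb -0.75 (0.78).

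Because 1 LSD1WT and 2 LSD1cKO mice gave both bones, the sites were also compared with the mouse as a block in the 8 ligated libraries, which leaves 1 residual degree of freedom. In this model 4 factors passed in LSD1cKO, where 37.5% of tested genes did. The 4 ligated LSD1cKO libraries alone, without a block, also called 4 (background 42.1%), so the gain is not shown to come from the pairing. Cebpa had a log2 fold change of -1.14 (adjusted p 5.54e-06) and Cebpd of -1.17 (adjusted p 5.93e-06, edgeR's quasi-likelihood test, Benjamini-Hochberg adjusted). Cebpb had -0.74 (adjusted p 0.00142) and Cebpe -0.93 (adjusted p 0.00437, edgeR's quasi-likelihood test, Benjamini-Hochberg adjusted). The sizes in LSD1cKO were those of the unpaired model, and the spread was smaller. In LSD1WT 1 factor passed, Cebpa, with a log2 fold change of -0.79 (adjusted p 0.0332, edgeR's quasi-likelihood test, Benjamini-Hochberg adjusted), where 7.18% of tested genes did. This LSD1WT value comes from the single mouse with both bones, its spread is taken from the LSD1cKO mice, and its p is therefore no test of LSD1WT mice. Leaving ligated femur LSD1WT replicate 1 out of the unpaired model called 4 factors in LSD1WT (background 23.2%), with the only ligated femur library left being replicate 2 and the spread taken from other conditions. Leaving replicate 2 out instead called 0, and Cebpa was then at -0.74 (adjusted p 0.993, edgeR's quasi-likelihood test, Benjamini-Hochberg adjusted).

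The third question was whether ligatures on the molars changed the factors in femur marrow. In LSD1WT 0 of the 8 factors passed (background 0%), 0 had an unadjusted p under 0.05 (0.765%) and DESeq2 called 0 (0.013%). The log2 fold changes of ligated over unligated ran from -0.40 for Myb to 0.79 for Cebpd. In LSD1cKO 0 passed (background 0%), with 0 at an unadjusted p under 0.05 (0.959%) and 0 by DESeq2 (0.00648%), and the log2 fold changes ran from -0.27 for Cebpb to 0.56 for Myb. For Klf4 the 95% interval of the log2 fold change was -0.79 to 0.51 in LSD1WT and -0.40 to 0.90 in LSD1cKO. Larger differences were possible for Cebpa, with intervals of -2.21 to 1.55 and -1.85 to 1.92. Each side of the LSD1WT comparison held a replicate 2 library that nearly lacked osteoclast transcripts.

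Levels of the factors were compared with each other per kilobase of exon (CPM per kb). The length was that of all annotated exons of a gene merged, from 1241 bases for Cebpe to 12025 for Runx1. Which of these exons the cells use was not tested. Before the division Runx1 was at 44.8 to 116 CPM and Klf4 at 9.60 to 41.3 CPM, so the order of the middle factors depends on this length. Spi1 was highest, at 125 to 258 CPM per kb with a median of 221. Cebpa had a median of 13.6 CPM per kb (5.90 to 70.3), Cebpb 7.94 (3.72 to 31.1) and Klf4 7.45 (3.15 to 13.5). Cebpd had a median of 5.05 (2.31 to 20.2), Runx1 4.91 (3.73 to 9.67), Cebpe 2.16 (0.467 to 6.39) and Myb 0.112 (0.0439 to 0.201). Spi1 was thus above every other factor and Myb below every other factor in all libraries, and the ranges of Cebpa, Cebpb, Klf4, Cebpd and Runx1 overlapped. The highest library was 13.7 times the lowest for Cebpe, 11.9 times for Cebpa and 2.06 times for Spi1.

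The relatives, binding partners and antagonists of the factors were examined as a list of 36 genes, of which 33 were tested. Over the 3 cultures 2 rose in LSD1cKO and 0 fell, where 3.53% of all genes passed, and their median log2 fold change was -0.05 against -0.06 over all genes. Gfi1b, a repressor that binds LSD1, was at 0.0828 to 4.07 CPM in LSD1WT and at 38.4 to 57.6 CPM in LSD1cKO. Its libraries did not overlap between the genotypes, and its log2 fold change was 4.15 (standard error 0.71, adjusted p 0.0106, edgeR's quasi-likelihood test, Benjamini-Hochberg adjusted). Runx2, a RUNX family relative best known from osteoblasts, was at 4.76 to 12.5 CPM in LSD1WT and at 11.3 to 18.0 CPM in LSD1cKO. It rose by 0.86 on the log2 scale (standard error 0.20, adjusted p 0.0469, edgeR's quasi-likelihood test, Benjamini-Hochberg adjusted). The other genes with the smallest p did not pass, namely Ets2 with a log2 fold change of -1.09 (adjusted p 0.202) and Egr2 with 0.70 (adjusted p 0.270, edgeR's quasi-likelihood test, Benjamini-Hochberg adjusted). Without both femur LSD1WT replicate 2 libraries, 14 genes of the list passed as higher and 2 as lower, where 14.4% and 9.75% of all genes did.

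Genes of the late neutrophil granule programme, which follows C/EBPε, were represented by 12 genes, all tested. Of these 2 rose and 0 fell, where 3% of all genes passed as higher, and the median log2 fold change was 0.38. Ltb4r1, a leukotriene B4 receptor, was at 0.776 to 2.21 CPM in LSD1WT and at 3.19 to 9.21 CPM in LSD1cKO, a log2 fold change of 2.20 (adjusted p 0.00503, edgeR's quasi-likelihood test, Benjamini-Hochberg adjusted). Padi4, the arginine deiminase of neutrophil extracellular traps, was at 0.477 to 1.69 CPM and at 1.61 to 9.64 CPM, a log2 fold change of 1.86 (adjusted p 0.0162, edgeR's quasi-likelihood test, Benjamini-Hochberg adjusted). Neither of these encodes a granule protein. Cd177 had a log2 fold change of 0.68 and the granule gene Ltf one of 0.40, without passing (adjusted p 0.279 and 0.349, edgeR's quasi-likelihood test, Benjamini-Hochberg adjusted). Without both femur LSD1WT replicate 2 libraries 4 genes of the list passed, all higher (14.4% of all genes).

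Progenitor-stage genes, among them targets of MYB and C/EBPα, numbered 12 with 11 tested. None passed (0, with 1 at an unadjusted p under 0.05, where 16.1% of all genes were), and the median log2 fold change was -0.12. The 4 with the smallest p were Flt3 at 0.52, Kit at 0.88, Meis1 at -0.41 and Mpo at -0.55 on the log2 scale, of which Flt3 was at 1.33 to 3.42 CPM over all libraries. The 20 monocyte and macrophage genes came from lists of known targets of PU.1, C/EBP, MYB or RUNX1 and were not chosen as targets of KLF4. Of these, 0 passed with 4 at an unadjusted p under 0.05, a share close to the 16.1% of all genes. The list's median log2 fold change was 0.04. The 4 were the receptor subunits Csf2ra (0.44, adjusted p 0.0755) and Csf2rb (0.51, adjusted p 0.0864), Mrc1 (-2.26, adjusted p 0.281) and Ly6c2 (0.56, adjusted p 0.300, edgeR's quasi-likelihood test, Benjamini-Hochberg adjusted). Without both femur LSD1WT replicate 2 libraries, 1 progenitor gene and 13 monocyte and macrophage genes passed, all higher, where 14.4% of all genes did.

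**Figure D4:**
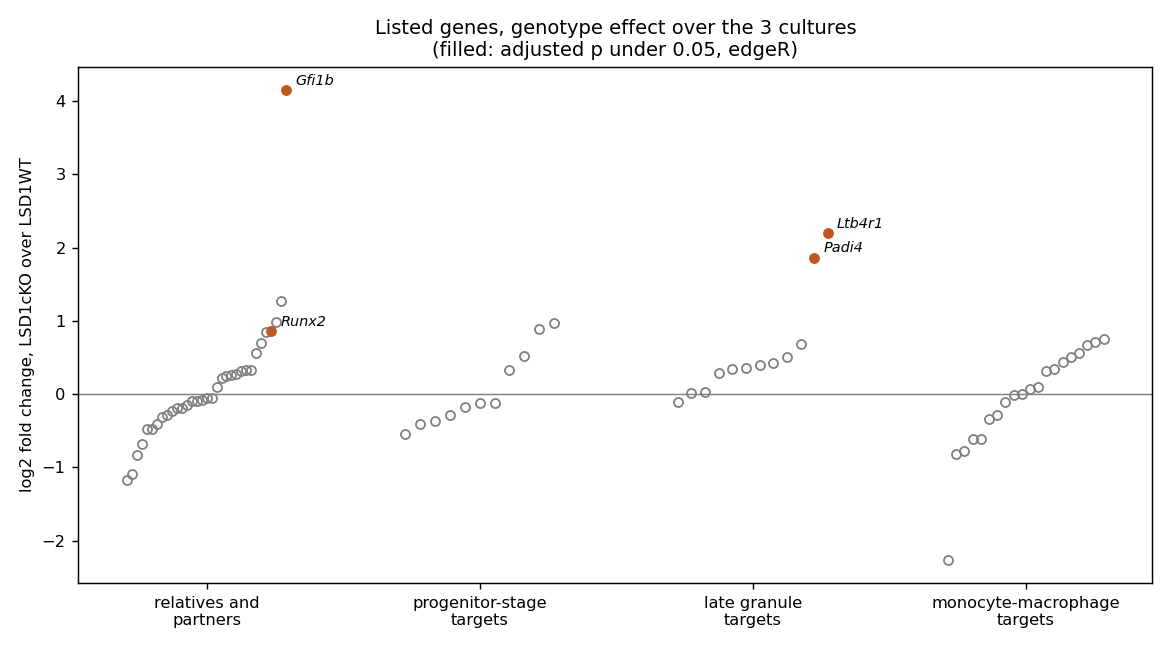
Log2 fold change of LSD1cKO over LSD1WT over the 3 cultures (vertical) for each tested gene of 4 lists, ordered within a list. Filled orange points passed the test and are named, which were Gfi1b, Runx2, Ltb4r1 and Padi4.

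Markers of the cells that the cultures could hold were read in the same model. Of the 10 osteoclast genes 0 passed (0 at an unadjusted p under 0.05) and the list's median log2 fold change was -0.32. With both femur LSD1WT replicate 2 libraries left out, 9 passed as lower in LSD1cKO and 0 as higher, where 9.75% of all genes passed as lower. The list's median log2 fold change was -0.92 without these libraries. In the fit of all 12 libraries, the 4 with the smallest p were Itgb3 (-0.73), Calcr (-0.83), Oscar (-0.64) and Ctsk (-0.40). None of these 4 passed there (adjusted p 0.719 to 0.917, edgeR's quasi-likelihood test, Benjamini-Hochberg adjusted). Of 8 megakaryocyte genes with 7 tested, Vwf rose (log2 fold change 1.10, adjusted p 0.0405, edgeR's quasi-likelihood test, Benjamini-Hochberg adjusted), and the summed level was 27.1 to 98.6 CPM except in both femur LSD1WT replicate 2 libraries, at 451 to 916 CPM. No gene passed among those tested of the B cell (3 of 8), T and NK cell (2 of 8), erythroid (1 of 8), mast cell (1 of 8), dendritic (7 of 8) or stromal lists (6 of 8). In the 10 libraries other than femur LSD1WT replicate 2, Cd79b of the B cell list, Il7r of the T and NK cell list and Gata2 of the mast cell list passed as higher, and Col1a1 and Sparc of the stromal list as lower. The summed levels in LSD1WT and LSD1cKO were 0.844 to 7.44 and 1.76 to 10.4 CPM for B cells and 8.77 to 30.1 and 25.8 to 40.0 CPM for T and NK cells. Il7r, which other lymphoid and myeloid cells can also express, made up most of the T and NK cell sum, at 8.28 to 29.7 CPM in LSD1WT and 24.7 to 39.1 CPM in LSD1cKO, while Cd3d, Cd3e, Cd3g and Cd8a had 2 counts or fewer in every library. The other summed levels were 0.0647 to 3.54 and 0.185 to 0.584 CPM for erythroid cells, 0.373 to 2.90 and 2.24 to 6.71 CPM for mast cells, 6.92 to 36.8 and 19.5 to 36.5 CPM for dendritic cells, and 0.787 to 59.5 and 1.49 to 10.7 CPM for stromal cells. Of the mast cell list, Gata2, which is also in the list of relatives and partners, was at 0.0828 to 2.83 CPM in LSD1WT and 1.75 to 6.68 CPM in LSD1cKO. Cpa3, Mcpt8, Fcer1a, Ms4a2, Prss34, Tpsb2 and Cma1, the rest of that list, had 5 counts or fewer in every library. Genes at 3 counts or fewer in every library numbered 5 of the T and NK cell list, 5 of the erythroid list and 4 of the mast cell list. The part of these cells in the levels of Klf4 and Cebpe was not tested.

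The pattern of each factor over the 12 libraries was last compared with that of all other tested genes by Pearson's r of log2 CPM. These libraries share the genotype and the 2 femur libraries that stand apart, so r is a description. Klf4 was most like Cd24a (r = 0.982), a surface glycoprotein of immature blood cells, and Spn (0.981), which encodes CD43, and without both femur LSD1WT replicate 2 libraries r was 0.987 and 0.993. Cebpe was most like Ly6i (0.966), of the Ly6 family, and Bvht (0.957). Spi1 was most like Dtx4 (0.994), Cebpa like Zbtb4 (0.988), and Runx1 like Nucb1 (0.987) and Tmem167b (0.986). Cebpb was most like Ube2d1 (0.983) and Slc9a3r1 (0.981), and Cebpd like Tnfsf12 (0.993) and Abhd14b (0.989). Myb, at few counts, had no gene above 0.894 (Gm37154, then Gm23969 at 0.880). Among the factors themselves Cebpa and Runx1 were the most alike over 12 libraries, at 0.967, and were at 0.911 over the 10 without femur LSD1WT replicate 2, and Cebpb and Cebpd were at 0.940 and 0.925. Cebpe and Klf4 were at 0.811 and 0.868, while Spi1 and Cebpa went from -0.73 to 0.17 when these libraries were left out.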

How the data were processed

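RNA of 12 preosteoclast libraries, 2 for each of 6 conditions, was measured by polyA sequencing. The authors deposited raw read counts per Ensembl gene, with no normalization or filter. The submitters' processing notes name FastQC, HISAT2 2.1.0, featureCounts, edgeR and GRCm39, and whether strand was used is not given in the sources used here. Total counts were 21375805 to 32526751 per library, and counts were lowest for Myb and Cebpe.

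Counts were fitted in R 4.3.3 with edgeR 4.0.16 (TMM scaling, filterByExpr by condition, 15425 genes, prior count 2 for log2 CPM). The genotype effect over the cultures came from a model with culture and genotype, and other contrasts from a model with 1 coefficient per condition (quasi-likelihood tests, two-sided). P values were adjusted by Benjamini-Hochberg over all genes tested and held to 0.05. Standard errors are the log2 fold change divided by the root of F. Exon lengths, of all annotated exons of a gene merged, came from GENCODE vM21.

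The tests were tested on simulated data. Over the cultures 90.5% of genes changed 4-fold and 37.9% of those changed 2-fold were recovered (15099 genes), and in the mandible alone 22.9% and 1.05% (15115 genes). The changed genes were drawn above a floor of mean CPM that Cebpe and Myb lie below, so recovery at their levels was not measured. Apart from the change, each gene had the same simulated mean in every library, so femur LSD1WT replicate 2 was not imitated. Alternatives were DESeq2 1.42.0, RLE scaling, every gene with 1 count or more in some library, a replicate block, the mouse as a block, only the libraries compared, each library left out, and both femur LSD1WT replicate 2 libraries left out. Pairing follows from the labels for 1 LSD1WT and 2 LSD1cKO mice that gave both bones, and the deviations of the LSD1cKO mice correlated at 0.026 between bones. Members, lists and naming rules were chosen with earlier results of these data known. Named genes were the 8 factors, the 4 genes of each list with the smallest p (all called ones too), of which the lists of other cell types are given by called genes and sums, and the 2 genes most like each factor, of which some are not reported here. List counts without the 2 libraries were added after seeing the data. Every deposited column of counts was used (0 unused).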

Additional observations from a re-analysis of the deposited data

How the results depend on the processing

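The calls of Klf4 and Cebpe over the 3 cultures held under each alternative that was run for this comparison. The mouse as a block and the fit of only the libraries compared were not run for it. Klf4 had an adjusted p of 0.000402 to 0.00439 and Cebpe of 0.00846 to 0.0282 with each library left out in turn, and 0.00658 and 0.0292 with a replicate block (edgeR's quasi-likelihood test, Benjamini-Hochberg adjusted). Without both femur LSD1WT replicate 2 libraries the count of factors called rose from 2 to 4, and with 1 LSD1WT library left in each femur condition the spread there is assumed to be that of the others. Counts of 0 within single comparisons depended on the model. In the mandible DESeq2 and the data with no filter each called 1 factor (backgrounds 0.947% and 0.166%), the 4 mandible libraries alone called 4 (background 37.7%), and leaving out both replicate 2 libraries called 2 (5.85%). For ligated femurs DESeq2 and no filter called 2 (1.41% and 0.343%) and leaving out both called 3 (9.35%), and for unligated femurs DESeq2 called 2 (0.791%) and leaving out both called 1 (2.47%). For the site in LSD1WT, DESeq2 and no filter called 2 (7.71% and 3.02%) and the mouse as a replicate block 1 (7.18%). For the site in LSD1cKO, the 4 libraries alone, leaving out both, and the mouse block each called 4 (backgrounds 42.1%, 21.7% and 37.5%). With 1 library left out at a time the counts were 0 to 1 for the genotype in mandible or ligated femur cultures, and 0 to 4 for the site in LSD1WT. In the mandible the 1 came without ligated femur LSD1WT replicate 1 (background 0.148%), and in the ligated femur without either unligated LSD1WT library (0.272% and 0.266%). RLE scaling changed no call of a factor, and the replicate number as a block (which the labels tie to a mouse only where it gave both bones) changed none either. For mice with the same number in ligated and unligated LSD1WT femur the deviations correlated at 0.780, where the labels name different mice.

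Directions changed for factors that did not pass in the fit of all 12 libraries. Of these, Cebpb and Cebpd passed over the cultures without both femur LSD1WT replicate 2 libraries, where their direction had changed. With the replicate block Spi1 in the mandible was at 0.10 on the log2 scale. Without both femur LSD1WT replicate 2 libraries the genotype values over the cultures were -0.11 for Spi1, 0.60 for Cebpa, 0.81 for Cebpb, 0.54 for Cebpd and 0.25 for Runx1. In the ligated femur they were -0.13, 0.99, 0.79, 0.79 and 0.28, and in the unligated femur -0.13, 0.34, 1.10, 0.66 and 0.19 in the same order. Spi1 in the site comparison of LSD1WT went to -0.085 in that setting and to -0.060 with the mouse block. Leaving out 1 library gave, over the cultures, -0.0039 to 0.28 for Spi1, -0.61 to 0.021 for Cebpa, -0.35 to 0.25 for Cebpb, -0.37 to 0.19 for Cebpd, -0.21 to 0.031 for Runx1 and -0.017 to 0.34 for Myb. In the ligated femur it gave -0.22 to 0.87 for Spi1, -1.46 to 0.91 for Cebpa, -1.35 to 0.70 for Cebpb, -1.54 to 0.71 for Cebpd and -0.73 to 0.19 for Runx1. In the unligated femur it gave -0.13 to 0.88 for Spi1, -1.81 to 0.33 for Cebpa, -1.21 to 1.10 for Cebpb, -0.64 to 0.66 for Cebpd, -0.67 to 0.19 for Runx1 and -1.26 to 0.25 for Myb. Myb in the mandible ran from -0.40 to 0.80. For the site in LSD1WT Spi1 ran from -0.12 to 0.92 and Klf4 from -0.50 to 0.19. For the site in LSD1cKO Spi1 ran from -0.11 to 0.035, Klf4 from -0.28 to 0.012 and Myb from -0.0088 to 0.43. Of the alternatives that leave out single libraries, 542 values kept their direction and side of the threshold, 27 changed direction and 7 passed newly, and of the other alternatives 244, 18 and 34 did. A value that changed direction was counted only there, whether or not it passed. The causes were not tested.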
